A study of Mus musculus with 35 samples.

Results

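RNA of CD8 T cells from the brain of aged male mice was compared with RNA of the same kind of cell from the spleen, after both had been stimulated with phorbol ester and ionophore. The brain group held 4 libraries, replicates 19 to 22, and the spleen group 5 libraries, replicates 36 to 40, taken by tissue, sex, age and treatment from the sample labels. These are 9 of the 35 libraries of the series. All 9 came from aged male C57BL/6 mice, with no allele or transgene named, and total RNA of the sorted cells was sequenced. The sorted cells carried CD3e and CD8 with high CD44 and low CD62L, the surface of antigen-experienced T cells. After sorting they were held at 37 °C for 2 h with PMA and ionomycin. The sources used here give neither the age itself, nor the number of sorted cells, nor whether animals were pooled. Since no label ties a replicate to its own animal, the p-values rest on the spread among libraries, and part of that spread may be technical. Sample titles are spelled with hyphens for the 4 brain libraries and without for the 5 spleen libraries, so tissue and whatever the spelling marks cannot be told apart.

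PMA is a phorbol ester that switches on protein kinase C, and ionomycin is an ionophore that lets calcium into the cell. Together they bypass the T cell receptor and drive the AP-1, NF-kB and NFAT transcription factors. Immediate early genes such as those of the Fos, Jun, Egr and Nr4a families answer first, since they need no new protein, and genes for cytokines, surface receptors and feedback inhibitors follow. Memory CD8 T cells that settle in the brain are known for surface CD69, for low levels of the receptors that guide cells back to blood and lymph, and for expressing inhibitory receptors. Both tissues were given the same stimulus, and the comparison asks how the 2 populations differ after it. All 9 libraries compared were stimulated. A difference in response and a difference already present at rest therefore cannot be told apart here.

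Brain libraries were shallower and far less complex than spleen libraries. Brain replicates 19 to 22 held 6391537, 2241662, 3850380 and 1156594 counts, against 11101911, 9932756, 8586075, 6745077 and 11188159 in spleen replicates 36 to 40, and values below follow these orders. Mitochondrial genes took 38.5, 54.2, 65.0 and 67.5% of the counts in brain, against 14.8 to 20.8% in spleen. At least 1 count was found for 4464, 3117, 3748 and 2271 genes in brain, against 13729 to 14689 in spleen. At an equal depth of 376098 counts on nuclear genes, that of the shallowest library, 3069 ± 662 genes were detected in brain (SD, n = 4) and 9903 ± 198 in spleen (SD, n = 5). The groups did not overlap in any of these measures, and the exact two-sided permutation test gave p = 0.0159 for each, the smallest that 4 against 5 libraries allow. The Spearman correlation of gene counts between replicates was 0.417 to 0.522 in brain and 0.863 to 0.897 in spleen. No 2 libraries agreed within counting noise.

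**Figure D1:**
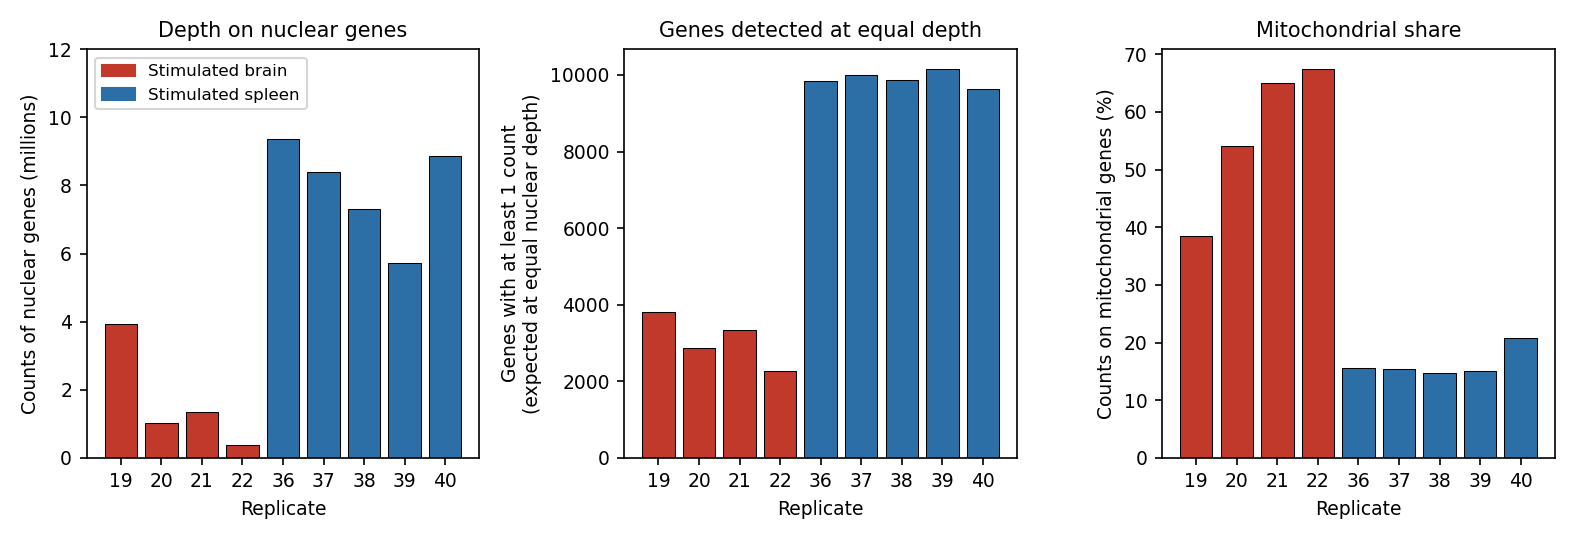
Counts on nuclear genes (left), genes expected to have at least 1 count at an equal nuclear depth (middle) and percent of counts on mitochondrial genes (right), one bar per library, brain replicates 19 to 22 left of spleen replicates 36 to 40. All 4 brain bars lie under all 5 spleen bars in the first 2 panels and above them in the third.

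Whether a gene was counted in brain followed its level in spleen. Among 84 nuclear genes that averaged over 1000 CPM (counts scaled to a common library total by the TMM method) in spleen, 89.3 to 98.8% had a count in each brain library. The share fell to 29.7 to 63.1% for the 1816 genes between 30 and 100 CPM and to 8.08 to 17.4% for the 5271 genes between 1 and 10 CPM. For an all-zero gene, 3 counts per library, a floor that covers counting error only, correspond to 1.63 CPM on average over the 4 brain libraries. Folds given below as "at least" are measured against this floor. Libraries differed by more than counting error, so such a fold is not a proven minimum difference between the tissues. In bulk RNA, fewer cells of a type and less RNA per cell cannot be told apart.

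**Figure D2:**
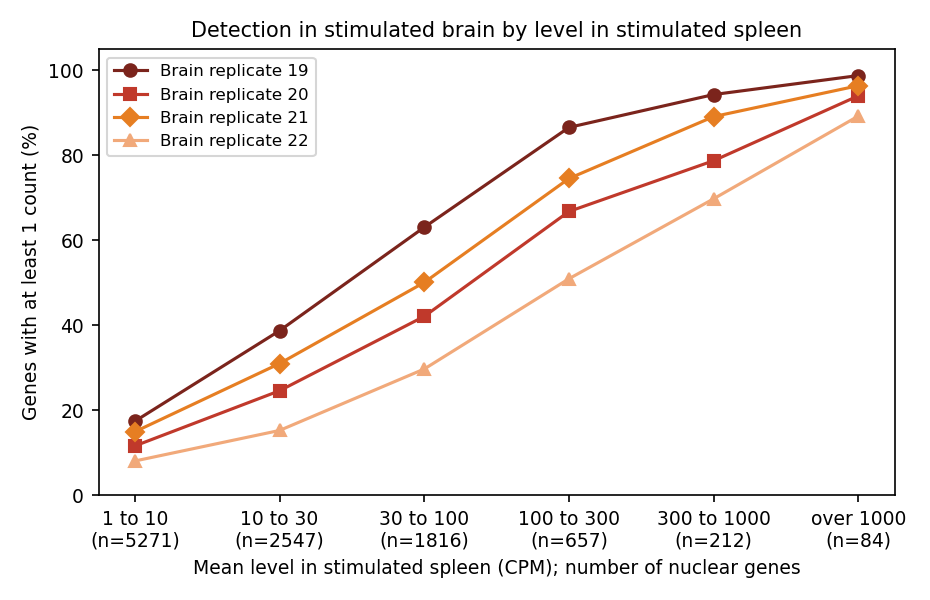
Percent of nuclear genes with at least 1 count in each stimulated brain library, by the gene's mean CPM in stimulated spleen, with the number of genes per class on the axis. The lines climb from 8.08 to 17.4% in the class of 1 to 10 CPM to 89.3 to 98.8% over 1000 CPM, and replicate 19 is the highest and replicate 22 the lowest in every class.

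Nearly all differences past the threshold ran downward in brain, and most belonged to genes with no count there. At a threshold of 0.05 on edgeR's adjusted p, 4434 of the 9135 genes tested (48.5%) differed. Of these, 166 were higher in brain (1.82% of tested genes) and 4268 lower (46.7%), and the median log2 fold change of all tested genes was -3.02. In all, 3386 of the lower genes (37.1% of tested genes) had 0 counts in all 4 brain libraries. The 3444 tested genes with 0 counts in brain passed the low-count filter through spleen libraries alone. Ttr, a gene counted in 3 brain libraries, was too sparse to be tested. The tested set thus favours genes held by spleen, and the share of 46.7% lower depends on this filter. Without a low-count filter, 255 genes were higher and 5202 lower among 19192 tested. With every all-zero gene set at the bound that the floor allows, the median of all genes became -1.37. A count in all 4 brain libraries was found for 880 genes, a choice that by itself favours genes with high brain levels. Of these, 200 (22.7%) passed, 150 higher and 50 lower, with a median of 0.26. Those 50 were 0.547% of all tested genes. In 4990 genes (54.6%) the groups did not overlap, 53.3% with brain below spleen and 1.30% with brain above. When the fit was limited to the 874 genes with a count in every library, a filter that favours high brain levels in the same way, 141 were higher and 58 lower, and the median was 0.15.

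**Figure D3:**
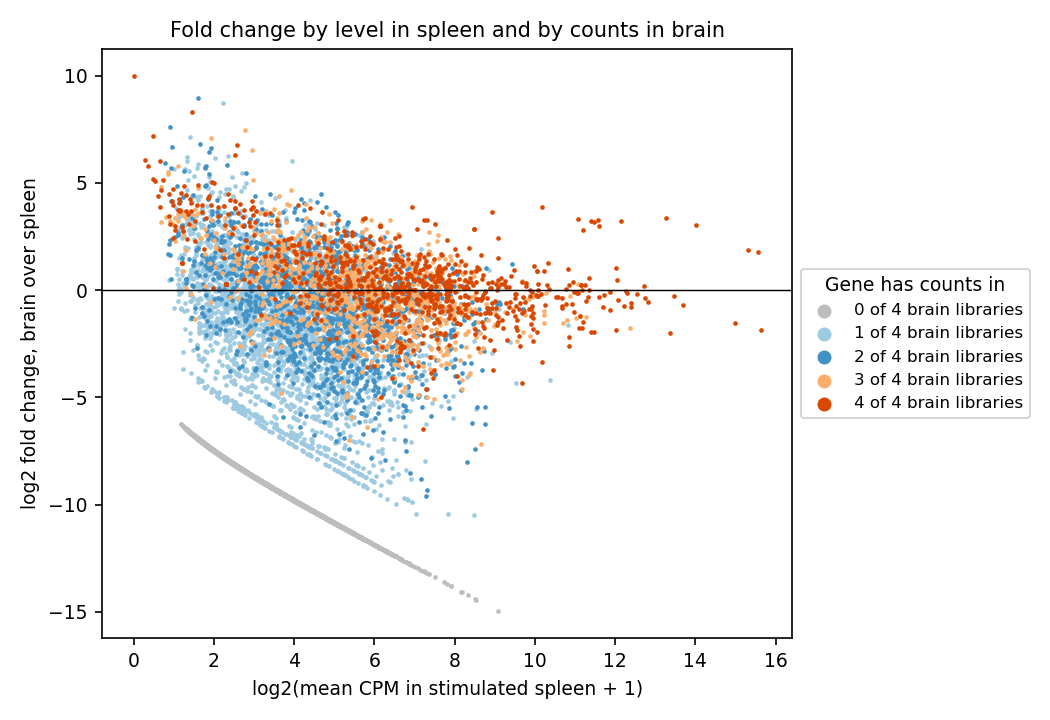
Fitted log2 fold change of brain over spleen against log2 of the mean spleen CPM plus 1, one point per tested gene, coloured by how many of the 4 brain libraries have a count. The grey band under -6 holds the 3444 tested genes with 0 counts in brain, whose fitted fold depends on the prior count, while genes counted in all 4 libraries, a choice that favours high brain levels, have a median of 0.26.

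Across 17 gene lists of T cell and cell functions, leaving out the mitochondrially encoded genes, 85 of 292 tested members (29.1%) fell in brain, beside 46.7% of all tested genes. None rose with edgeR, where 2 were higher at an unadjusted p under 0.05, and none with limma voom, but DESeq2 called 9 higher: Atf3, Cdh1, Cox6c, Egr3, Hspa1b, Jund, Psmb10, Zap70 and Zfp36l2. Only the lists of cytotoxic genes and of inhibitory receptors had a larger share of lower members than all tested genes. The lists are described in turn.

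Genes of CD8 T cell identity checked the label. Cd8a, which encodes the CD8 alpha chain (ENSMUSG00000053977, chromosome 6, 71373427 to 71379173, GRCm38, protein-coding), had 98.9, 53.0, 41.9 and 103 CPM in brain, against 146, 145, 214, 209 and 88.0 CPM in spleen. The groups overlapped, and the log2 fold change of -1.11 ± 0.65 (SE) did not pass (edgeR adjusted p = 0.2). Zap70, the kinase below the T cell receptor, had 34.3, 38.6, 148 and 456 CPM in brain and 54.5, 59.9, 53.8, 47.3 and 74.3 CPM in spleen, and Thy1, a T cell surface protein, had 118, 10.2, 232 and 366 CPM and 121, 128, 153, 134 and 90.2 CPM. Both overlapped between tissues, and brain libraries 21 and 22 were above every spleen library for both. Other parts of the receptor were patchy. Cd8b1, the CD8 beta chain, had 0, 0, 63.1 and 1.05 CPM in brain and 204, 241.3, 349, 343 and 154 CPM in spleen, so every brain library lay under every spleen library, with an adjusted p of 0.14 that became 0.0011 without brain replicate 21. Cd3e, a CD3 chain of the receptor, had 16.9, 0, 44.7 and 9.42 CPM and 170.1, 156, 309.9, 262 and 108 CPM (adjusted p = 0.059, and 0.013 or 0.029 without brain replicate 20 or 21). Of 18 identity genes tested, 2 fell and none rose, with a median of -1.64 on the log2 scale. Those were Trbc2, a T cell receptor beta constant segment, with 0 counts in brain and 54.1, 51.8, 54.8, 37.1 and 48.8 CPM in spleen, and Cd3d, at -5.35 (adjusted p = 0.029). Cd3d had a count in brain replicate 19 alone, and its adjusted p was 0.051 to 0.054 without any one of spleen replicates 36 to 39. Trbc1 and Trbc2 are near-identical, so their split is uncertain. In all, 6 of the 18 were counted in all 4 brain libraries, among them Ptprc, the CD45 gene, with 792, 94.4, 712 and 21.98 CPM in brain and 1965, 1819.8, 1772, 1863 and 1730.5 CPM in spleen (-2.18 ± 0.92, adjusted p = 0.08). Every brain value of Ptprc lay under every spleen value, and its adjusted p was 0.046 without brain replicate 19 and 0.044 without brain replicate 22.

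After the mitochondrially encoded genes, the immediate early genes were the list with the largest share of members counted in all 4 brain libraries, and most overlapped spleen. Of 24 members, 20 were counted in all 4 brain libraries, 6 fell, none rose and 18 did not pass. Their median log2 fold change was -0.51, beside -3.02 over all genes, or -1.37 with all-zero genes at their bound. Only 2 of the 24 were all-zero. All genes counted in all 4 brain libraries, a choice that favours high brain levels, had a median of 0.26. The heat shock, MHC class I and abundant housekeeping lists had medians of -0.35, -0.26 and -0.59. Counting in brain rose with the spleen level, and these medians are not matched for level. DESeq2, the alternative test, called 9 lower and 3 higher, namely Atf3, Egr3 and Jund. Nr4a1, an orphan nuclear receptor induced by antigen receptor signals (ENSMUSG00000023034, chromosome 15, 101254269 to 101274795, GRCm38, protein-coding), had 2111, 2720.0, 1237 and 1475 CPM in brain, against 1865, 2389, 1518, 1593 and 2725 CPM in spleen. Brain replicates 19 and 20 lay inside the spleen range and replicates 21 and 22 under it, and the log2 fold change was -0.10 ± 0.37 (SE, adjusted p = 0.86). Neither of its relatives passed. Nr4a3 had 2360.2, 1592, 1583 and 1276 CPM in brain and 2476, 3061, 1061, 1377 and 4364 CPM in spleen (-0.54 ± 0.47, adjusted p = 0.41), and Nr4a2 1538, 1695, 415 and 261 CPM and 1704, 1880.0, 957, 1230.5 and 2393 CPM (-0.74 ± 0.62, adjusted p = 0.39). For Nr4a2, brain replicates 21 and 22 were under the spleen range.

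Among AP-1 subunits, Fosb, Fos and Fosl2 overlapped between the tissues. Fosb had 679, 488, 1126 and 268 CPM in brain and 694, 763, 508, 559.7 and 1076 CPM in spleen (-0.17 ± 0.52, adjusted p = 0.83). Fos had 958, 274, 1929 and 383 CPM and 748, 789, 1547, 1229 and 1071 CPM, and Fosl2 566, 592, 479 and 307 CPM and 331, 447, 190.2, 231 and 659.9 CPM. The log2 fold changes were -0.28 ± 0.62 for Fos (adjusted p = 0.76) and 0.39 ± 0.54 for Fosl2 (adjusted p = 0.62). Jund alone of the list stood above spleen in every brain library, at 65.2, 99.98, 303 and 87.9 CPM against 50.9, 52.9, 53.5, 57.7 and 44.6 CPM, with an adjusted p of 0.13.

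The Egr family split. Egr1, a zinc finger factor (ENSMUSG00000038418, chromosome 18, 34859823 to 34864984, GRCm38, protein-coding), had 1086, 366, 911 and 319 CPM in brain, against 2314, 2688, 2005, 2204 and 2371 CPM in spleen. Every brain library lay under every spleen library, and Egr1 fell by 1.79 on the log2 scale (SE 0.47, adjusted p = 0.0096). Egr2 and Egr3, its relatives, did not pass. Egr2 had 402, 211, 592 and 178 CPM in brain and 281, 409, 312, 279.8 and 569 CPM in spleen (-0.10 ± 0.56, adjusted p = 0.91), and Egr3 296, 615, 282 and 259.6 CPM and 168, 245, 142, 138 and 314 CPM (0.85 ± 0.56, adjusted p = 0.26, and 0.024 with DESeq2). Nab2, a corepressor that binds Egr proteins, had 0 counts in brain and 18.9, 26.3, 17.8, 18.2 and 33.3 CPM in spleen, at least 14.1-fold lower. The difference between Egr1 and its relatives was not itself tested.

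The other members that fell were Myc, Btg1, Btg2 and Ier3. Myc, which drives growth of activated T cells, had 59.4, 183, 214 and 48.2 CPM in brain and 494, 783, 293, 325 and 1235 CPM in spleen (-2.31 ± 0.75, adjusted p = 0.028). The groups did not overlap, yet the adjusted p was 0.055 without spleen replicate 37 and 0.058 without spleen replicate 40, the libraries with the highest Myc. Btg1 and Btg2 encode antiproliferative proteins that keep T cells quiescent. Btg1 had 38.1, 112, 10.8 and 1.05 CPM in brain and 720.5, 966, 771, 887 and 716 CPM in spleen (-4.33 ± 1.15, adjusted p = 0.011). Btg2 had 2.78, 3.26, 34.8 and 25.1 CPM and 219, 346, 199.7, 213 and 348 CPM (-4.01 ± 1.01, adjusted p = 0.0077). No brain library reached the spleen range for either gene. Ier3, an early response gene that shapes survival, had 0 counts in brain and 12.8, 22.8, 36.5, 33.96 and 28.7 CPM in spleen, at least 16.6-fold lower.

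**Figure D4:**
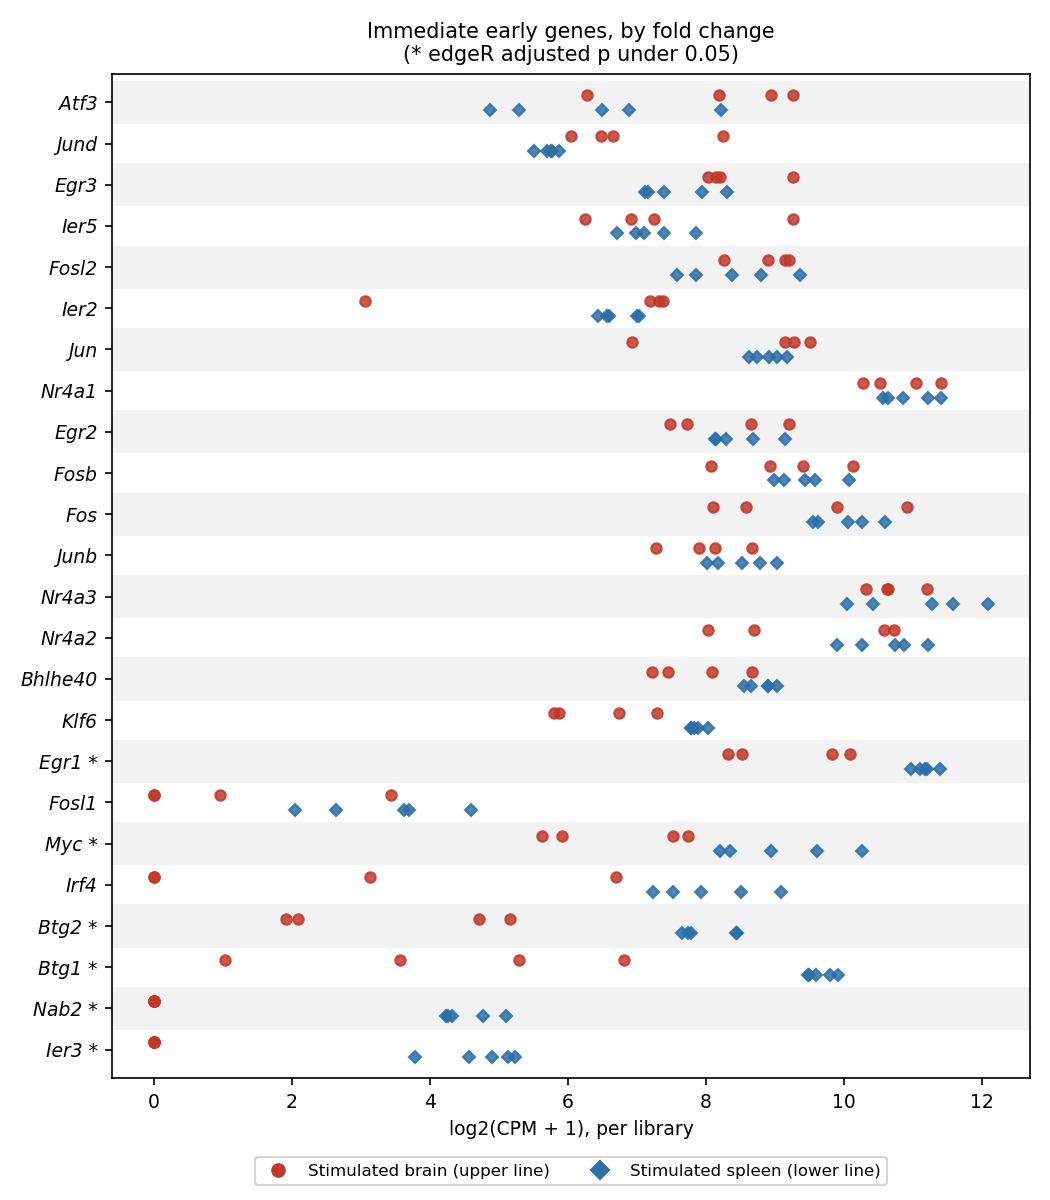
Each library's log2(CPM + 1) for the 24 immediate early genes, brain as circles on the upper line and spleen as diamonds on the lower line of each row, ordered by fold change, with a star for an edgeR adjusted p under 0.05. The 6 starred genes stand left of spleen in every brain library, and 15 of the 18 others overlap; Jund lies above spleen, and Klf6 and Irf4 below, without passing.

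Feedback inhibitors of signalling and of mRNA stability also split. Of 26 members, 3 fell, none rose and 23 did not pass, with a median of -1.36. Tnfaip3 encodes A20, an enzyme that ends NF-kB signalling (ENSMUSG00000019850, chromosome 10, 19000910 to 19015657, GRCm38, protein-coding). It had 1037, 638, 497 and 783 CPM in brain, against 2417, 3551, 2167, 2639.5 and 3379 CPM in spleen, without overlap (-1.94 ± 0.37, adjusted p = 0.0016). Nfkbia, which encodes IkB alpha, another NF-kB inhibitor, overlapped between tissues at 676, 356, 312 and 51.3 CPM in brain and 379, 507, 257, 313 and 617 CPM in spleen (-0.25 ± 0.71, adjusted p = 0.81). Both are classical NF-kB targets, and their promoters are shown because Tnfaip3 passed and Nfkbia did not; the difference between them was not itself tested. The sequences are from RefSeq on GRCm38.p6, minus strand, 250 bases before to 50 after the start of the gene, at chr10:19015361-19015660 and chr12:55492598-55492897, and capitals mark the motifs found.
Tnfaip3: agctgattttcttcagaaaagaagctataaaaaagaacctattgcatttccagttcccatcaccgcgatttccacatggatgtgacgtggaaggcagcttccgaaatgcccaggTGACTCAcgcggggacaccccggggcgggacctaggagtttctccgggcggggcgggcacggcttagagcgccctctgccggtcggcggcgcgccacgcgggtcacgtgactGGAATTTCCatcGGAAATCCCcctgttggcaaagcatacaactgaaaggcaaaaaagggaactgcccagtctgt
Nfkbia: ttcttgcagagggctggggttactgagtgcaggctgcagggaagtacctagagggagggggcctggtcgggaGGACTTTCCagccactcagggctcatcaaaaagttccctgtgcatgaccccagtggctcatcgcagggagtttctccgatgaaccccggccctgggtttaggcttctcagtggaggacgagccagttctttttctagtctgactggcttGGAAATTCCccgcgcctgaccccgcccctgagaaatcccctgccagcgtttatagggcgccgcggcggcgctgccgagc
Searched on both strands, GGNNTTNCC, a form of the NF-kB site, was found 2 times in each promoter, at bases 227 and 239 of Tnfaip3 and at bases 73 and 222 of Nfkbia. TGANTCA, the AP-1 site, was found once in Tnfaip3, at base 115, and not in Nfkbia, and no matches overlapped. Of all 27025 promoters of the table, 15.8% held GGNNTTNCC and 7.93% held TGANTCA. Among the 20 feedback genes with a promoter in the table, 7 and 3 held them, and among the 18 such immediate early genes 3 and none. A match of letters is a description and not a measured site. The Tnfaip3 window lies almost wholly inside the gene span given above, which comes from GENCODE and not RefSeq. The annotations thus place the start of Tnfaip3 differently.

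The other feedback genes that fell were Zfp36l1 and Zc3h12a. Zfp36l1, a protein that sends cytokine mRNA to decay, had 102, 41.4, 44.3 and 50.2 CPM in brain and 364, 440.2, 273, 333 and 500.2 CPM in spleen (-2.68 ± 0.60, adjusted p = 0.0042), without overlap. Zc3h12a, which encodes the RNase Regnase-1, had 5.94, 3.72, 0 and 0 CPM and 39.3, 71.1, 36.3, 35.9 and 89.5 CPM (-4.42 ± 1.39, adjusted p = 0.025, and 0.051 without spleen replicate 37). In all, 11 of the 26 stood under spleen in every brain library, beside 53.3% of all tested genes.

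Cytokine and chemokine genes gave 1 call. Of 12 tested members 1 fell and none rose, with a median of -1.08; 5 of 17 listed members were too low to be tested. Tnf, the tumour necrosis factor gene, had 617, 906, 1018 and 156 CPM in brain and 289, 491, 287, 268 and 765 CPM in spleen (0.68 ± 0.64, adjusted p = 0.44). Ccl3, a chemokine that draws in leucocytes, had 602, 2088, 621 and 654 CPM and 550.5, 876, 696, 1008 and 1234 CPM (0.18 ± 0.53, adjusted p = 0.81). Both overlapped. Ifng, the interferon gamma gene (ENSMUSG00000055170, chromosome 10, 118441046 to 118445892, GRCm38, protein-coding), had 2997, 363, 70.2 and 464 CPM in brain, against 1457, 2510.2, 1539, 1674 and 2839.8 CPM in spleen. Brain replicate 19 topped all 9 libraries while the other 3 lay under every spleen library. The log2 fold change was -1.04 ± 0.91 (adjusted p = 0.4), and without brain replicate 19 it was -2.80 (adjusted p = 0.0088). Ccl4, a relative of Ccl3, had 339.9, 385, 93.2 and 306 CPM in brain and 537, 895, 468, 563 and 1297 CPM in spleen, without overlap (-1.42 ± 0.59, adjusted p = 0.077, and 0.031 with DESeq2). Il10, an anti-inflammatory cytokine gene, was the member that fell, with 0 counts in brain and 36.5, 36.8, 33.05, 63.0 and 52.3 CPM in spleen, at least 27.3-fold lower.

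Among 14 activation receptors 4 fell and none rose, beside 46.7% of all tested genes lower, with a median of -2.48. Cd69, the early activation receptor that holds T cells in tissue, had 410.3, 0, 394 and 58.6 CPM in brain and 778, 1052, 595, 715 and 1592 CPM in spleen. All brain values lay under the spleen range, and brain replicate 20 had no count (-2.13 ± 1.43, adjusted p = 0.27). With limma voom the log2 fold change of Cd69 was -4.91 (adjusted p = 0.020). Tfrc, the transferrin receptor for iron uptake, had 0 counts in brain and 56.4, 97.01, 36.8, 62.0 and 176 CPM in spleen, at least 52.7-fold lower. The costimulatory receptor genes Cd27, with 39.5, 40.4, 37.3, 32.9 and 54.4 CPM in spleen, and Tnfrsf9 (4-1BB), with 12.4, 10.7, 5.79, 4.60 and 16.8 CPM in spleen, also had 0 counts in brain and were at least 25.2-fold and 6.17-fold lower.

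Among the T cell lists, those of cytotoxic function and of inhibitory receptors had the largest share of members lower, beside 46.7% of all tested genes. Of 14 cytotoxic genes 9 fell and none rose, and 7 of the 9 had 0 counts in brain. The median was -7.73, or -3.12 with all-zero genes at their bound. Prf1, the perforin gene, had 19.01, 24.4, 38.7, 34.6 and 21.1 CPM in spleen and was at least 16.96-fold lower in brain. The granzyme gene Gzmk had 56.5, 51.5, 114, 129 and 18.4 CPM in spleen and was at least 45.4-fold lower. Serpinb9, whose product shields the killer cell from its own granzyme B, had 85.3, 92.0, 89.3, 87.0 and 68.4 CPM in spleen and was at least 51.9-fold lower. Granzyme B itself was uneven, since Gzmb had 0, 0, 269.8 and 138 CPM in brain and 58.7, 57.4, 70.5, 96.6 and 33.6 CPM in spleen (0.69 ± 1.79, adjusted p = 0.79): brain replicates 21 and 22 were above every spleen library and the other 2 had none. Tbx21, which encodes the effector factor T-bet, was counted in all 4 brain libraries and fell, with 6.50, 17.2, 6.59 and 14.7 CPM in brain and 83.1, 143, 87.7, 100.3 and 186 CPM in spleen (-3.42 ± 0.77, adjusted p = 0.0042).

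Of 14 inhibitory receptor and exhaustion genes 8 fell and none rose, 7 of them with 0 counts in brain (median -5.66, or -2.14 at the bounds). Cd200r1, which encodes the receptor for CD200 (ENSMUSG00000022667, chromosome 16, 44765736 to 44794978, GRCm38, protein-coding), had 0 counts in all 4 brain libraries, against 1.68, 3.38, 3.83, 2.42 and 0.0869 CPM in spleen. It passed (adjusted p = 0.029), but the floor bounds the difference at only 1.40-fold, and limma voom gave 0.26 and the fit of all 35 libraries 0.066. Ctla4, which restrains CD28 signals, had 94.7, 102, 54.2, 82.2 and 83.5 CPM in spleen and was at least 51.2-fold lower in brain. Lag3, a checkpoint receptor, and Klrd1, the CD94 gene, had spleen means of 17.7 ± 6.99 and 24.1 ± 7.71 CPM (SD, n = 5) and were at least 10.9-fold and 14.8-fold lower. Pdcd1, the PD-1 gene, had 95.4, 0, 2.35 and 0 CPM in brain and 52.1, 53.5, 86.0, 99.8 and 98.3 CPM in spleen (-1.66 ± 1.73, adjusted p = 0.49), so brain replicate 19 stood inside the spleen range and the others under it.

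Tissue residency, circulation and naive T cell genes had shares of lower members at or below the 46.7% of all tested genes. Of 15 tissue residency genes 4 fell and none rose (median -1.21). Inpp4b, a phosphoinositide phosphatase, had 0 counts in brain and 74.7, 84.6, 84.4, 91.0 and 71.0 CPM in spleen, at least 49.9-fold lower. Cxcr4, a chemokine receptor, had 0.186, 0, 0 and 0 CPM in brain and 73.0, 67.0, 41.5, 47.2 and 81.3 CPM in spleen (adjusted p = 0.00043), and Rgs10, a regulator of G protein signalling, 0, 0, 1.41 and 0 CPM and 35.2, 25.1, 20.4, 24.3 and 27.9 CPM. For both, a single brain library held the counts, 1 of Cxcr4 and 3 of Rgs10, too few for a fold. Cdh1, the E-cadherin gene, had the highest log2 fold change among residency genes, with 60.7, 10.2, 0 and 106 CPM in brain and 7.90, 5.20, 4.90, 5.87 and 2.95 CPM in spleen (3.03 ± 1.33, adjusted p = 0.092). Of 13 egress and circulation genes 6 fell and none rose (median -3.22, or -2.38 at the bounds). S1pr1, the receptor that guides T cells out of tissue, had 19.1, 26.1, 22.2, 23.3 and 18.3 CPM in spleen and 0 counts in brain, at least 13.4-fold lower. Ccr7, the lymph node homing receptor gene, was at least 25.98-fold lower. Of 13 naive and central memory genes 4 fell and none rose (median -2.61, or -2.19 at the bounds), among them Lef1, a factor of naive T cells, at least 40.1-fold lower, and the receptor gene Slamf6, at least 11.4-fold lower.

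Mitochondrially encoded genes were the one list that rose. Of its 13 protein genes 12 rose and none fell, with a median of 3.19. mt-Nd6, a complex I subunit on the other strand from most of the mitochondrial genes, had 8603, 10747, 25078 and 23930.2 CPM in brain and 1296, 969, 899, 825 and 1835 CPM in spleen (3.87 ± 0.44, adjusted p = 0.00043). mt-Atp6, an ATP synthase subunit, had a log2 fold change of 3.35 ± 0.39 and mt-Nd2, of complex I, one of 3.32 ± 0.40 (adjusted p = 0.00043 for both). Every brain library exceeded every spleen library for these 12 genes. mt-Nd3 was the exception, with 1892, 0.465, 2601 and 0 CPM in brain and 151, 167, 169, 154 and 319.8 CPM in spleen. Nuclear genes of the same respiratory complexes gave no higher member. Of 42 tested, 19 fell, close to the share of all tested genes, 15 of them with 0 counts in brain (median -3.45, or -2.47 at the bounds). Uqcrb of complex III was at least 46.1-fold lower, and the ATP synthase genes Atp5c1 and Atp5l at least 40.1-fold and 28.2-fold lower. Among 14 glycolysis enzymes 3 fell (median -1.85), beside 46.7% of all tested genes. They were Hk2, a hexokinase gene, Pfkfb3, whose product makes an activator of glycolysis, and Pgk1, phosphoglycerate kinase. Pfkfb3 had 0.557, 0, 0 and 2.09 CPM in brain and 20.3, 27.6, 19.2, 22.1 and 33.4 CPM in spleen. Pgk1 had 0 counts in brain and 101, 81.4, 87.5, 99.8 and 0 CPM in spleen, so spleen replicate 40 had none either. With limma voom Pgk1 did not pass (adjusted p = 0.24).

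Chaperone and antigen presentation genes gave few calls. None of 12 heat shock genes passed with edgeR, where 2 had an unadjusted p under 0.05. DESeq2 called 1 higher and 1 lower and limma voom 5 lower, and their median with edgeR was -0.35. Hsp90aa1, a stress-inducible chaperone, had 6469, 4493, 4063 and 4207 CPM in brain and 6065, 5818, 4006, 4422 and 4579 CPM in spleen (-0.05 ± 0.27, adjusted p = 0.91). Hspa1b, an inducible Hsp70 gene, had 11442, 9855, 9312 and 3531 CPM and 4887, 4959, 4896, 4330.1 and 1857 CPM (1.03 ± 0.42, adjusted p = 0.069, and 0.015 without brain replicate 22). Brain replicates 19, 20 and 21 exceeded every spleen library for Hspa1b, whose reads cannot be split cleanly from its copy Hspa1a. Hspa8, the constitutive Hsp70 gene, had 19307, 5658, 5245 and 2406 CPM and 14395, 15145, 11189.5, 11582 and 13353 CPM (-0.69 ± 0.53, adjusted p = 0.34). Without brain replicate 19, the highest, Hspa8 stood at -1.62 (adjusted p = 0.0043). Of 12 MHC class I and processing genes 1 fell, Psmb9, an immunoproteasome subunit gene that no brain library counted, at least 13.5-fold lower (list median -0.26). H2-K1, a class I heavy chain gene, had 2894, 2329, 1967 and 3175 CPM in brain and 1835, 1955, 2045, 1874 and 2215 CPM in spleen (0.38 ± 0.29, adjusted p = 0.33).

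Among 16 genes of abundant housekeeping proteins and RNA, 2 fell (median -0.59). Actb, the beta actin gene, had 857, 355, 1369 and 163 CPM in brain and 2812, 2481, 3519, 2883 and 1825 CPM in spleen (-1.98 ± 0.62, adjusted p = 0.024). Malat1, a nuclear long non-coding RNA, had 1856, 1387, 773 and 582 CPM and 3881, 4239, 3715, 4352 and 4639 CPM (-1.86 ± 0.40, adjusted p = 0.0034). Neither overlapped. Of 16 interferon response genes 7 fell, close to the 46.7% of all tested genes (median -2.51, or -1.52 at the bounds). Among them were Zbp1, a nucleic acid sensor gene, at least 13.8-fold lower, Ifit2, at least 6.44-fold lower, and Stat2, at least 5.66-fold lower. One brain library stood out in this list. Brain replicate 21 had 842 CPM of Ifit3 and 898 CPM of Rsad2, both interferon-induced genes, and the other 3 brain libraries had at most 13.9 CPM of Ifit3 and 0.465 CPM of Rsad2. Of 19 survival and death genes 6 fell, beside 46.7% of all tested genes (median -2.55, or -1.42 at the bounds). Bcl2a1d, a Bcl2 relative induced by NF-kB, had 0 counts in brain and 272, 449.8, 221, 214 and 687 CPM in spleen, at least 227-fold lower, though it has close copies in the mouse genome. Pmaip1, which encodes the death protein Noxa, had 1.86, 0, 0 and 0 CPM in brain and 33.9, 46.7, 34.4, 46.5 and 59.8 CPM in spleen, so brain replicate 19 alone counted it.

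**Figure D5:**
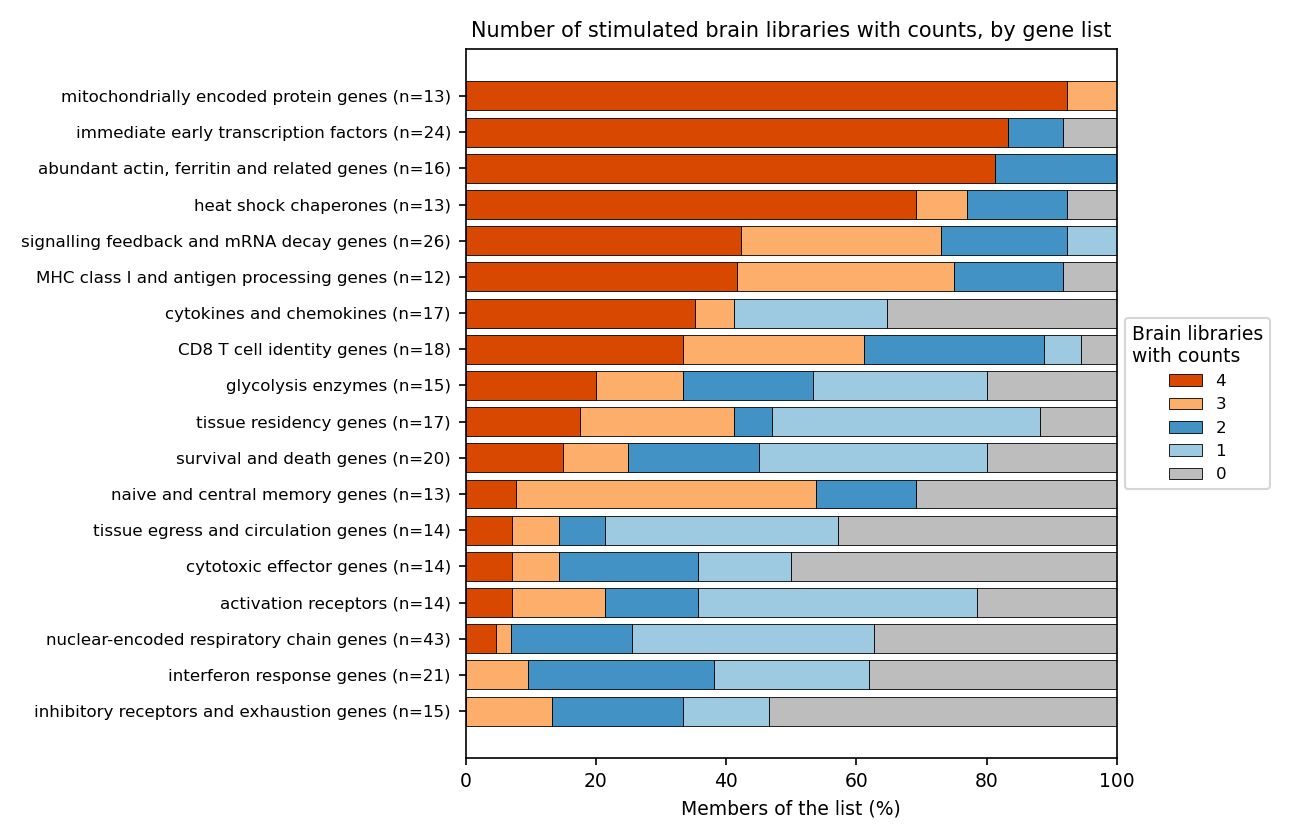
Percent of each list's members by the number of stimulated brain libraries, 4 down to 0, in which they have a count, with the number of members beside each name. Mitochondrially encoded and immediate early genes are at the top, with 12 of 13 and 20 of 24 counted in all 4 libraries, and no interferon response or inhibitory receptor gene is counted in all 4.

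Genes outside the lists were taken by size of change among those with at least 10 CPM on average, counts in 3 or more brain libraries and no overlap between the groups. Their groups therefore do not overlap by choice. The lowest were Hnrnpf, which encodes an RNA-binding splicing protein, Sri, the calcium-binding protein sorcin, Ifi203, an interferon-inducible gene, Ppp3r1, the regulatory subunit of calcineurin, Tagln2, an actin-binding protein, and Parp14, an ADP-ribosyltransferase. Hnrnpf had 0.557, 0, 7.53 and 3.14 CPM in brain and 369, 446, 350.0, 425 and 428 CPM in spleen (-7.18 ± 1.40, adjusted p = 0.0019). Ifi203 had 0.371, 0.465, 3.77 and 2.09 CPM and 135, 145, 188, 171 and 99.9 CPM (-6.48 ± 1.09, adjusted p = 0.00077). Ppp3r1, part of the phosphatase that calcium switches on to activate NFAT, had 0.186, 0.465, 1.88 and 0 CPM in brain and 77.2, 37.9, 70.9, 59.7 and 32.05 CPM in spleen (adjusted p = 0.0012), with 1, 1, 4 and 0 counts in brain, too few for a fold. No brain library held more than 7.53 CPM of these 3 genes.

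The highest changes were Snhg11, a non-coding host transcript, Mylk4, a myosin light chain kinase gene, Wnt4, a secreted Wnt ligand gene, Cdk15, a kinase gene, and Gcm1, a placental transcription factor gene. Snhg11 had 17.8, 7.91, 50.9 and 75.4 CPM in brain and 0.366, 0.346, 0, 1.04 and 1.13 CPM in spleen (6.01 ± 1.26, adjusted p = 0.0029). Wnt4 had 25.1, 23.7, 28.3 and 38.7 CPM and 1.10, 1.30, 0.267, 2.07 and 1.56 CPM (4.50 ± 0.67, adjusted p = 0.00045). Mylk4, Cdk15 and Gcm1 had log2 fold changes of 4.97 ± 0.84, 4.46 ± 0.83 and 4.44 ± 0.98. Spleen levels of these 5 were under 10 CPM in every library.

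Several genes with substantial spleen levels were higher in brain too, and they were picked after their values were seen. Cdk11b, a kinase of transcription and splicing, had 1459.7, 717, 2383 and 1492 CPM in brain and 145, 152, 153, 167 and 176 CPM in spleen (3.26 ± 0.47, adjusted p = 0.00043). Prrc2a, which encodes an RNA-binding protein, had 451, 624, 1199 and 1506 CPM and 112, 148, 120.1, 111 and 167 CPM (2.84 ± 0.53, adjusted p = 0.0014). Ankrd11, a chromatin regulator gene, had 1523, 1008, 1979 and 587 CPM and 305, 368, 267, 309 and 387 CPM (1.96 ± 0.47, adjusted p = 0.0056). All 4 brain libraries exceeded all 5 spleen libraries for these 3 genes. Kmt2d, a histone methyltransferase gene (1.62, adjusted p = 0.02), Srrm2, a splicing factor gene (1.47, adjusted p = 0.028), and Myh9, the non-muscle myosin gene (1.25, adjusted p = 0.024), were no longer past the threshold without brain replicate 21. Without it their adjusted p values were 0.06, 0.1 and 0.087. Those of Srrm2 were 0.050 to 0.056 without brain replicate 20 or spleen replicate 36, 37 or 39, and those of Myh9 0.051 and 0.062 without spleen replicate 36 and 37. With no scaling between libraries all 3 missed the threshold. Among nuclear protein-coding genes counted in all 4 brain libraries, the median GC content of the longest transcript was 49.97% for the higher, 48.4% for the lower and 51.0% for the genes that did not pass. It was 48.2% for genes with 0 counts in brain and 48.9% for all tested nuclear genes, and at least 96.3% of each set had a value. The median transcript length was 3.86 kb for the higher, 4.32 kb for the lower and 4.12 kb for the genes that did not pass. It was 3.24 kb for genes with 0 counts in brain and 3.57 kb for all tested nuclear genes.

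Genes picked for a high CPM in brain, a measure not corrected for gene length, gave 1 call among those named here. Eef1a1, an elongation factor gene, had 6614, 3399, 5932 and 5275 CPM in brain and 6459, 7164, 6965, 6573 and 7269.8 CPM in spleen (-0.38 ± 0.26, adjusted p = 0.28). The ribosomal protein genes Rps24 and Rpl23a did not pass either (adjusted p = 0.75 and 0.45). Lars2, a mitochondrial leucyl-tRNA synthetase gene, fell, with 15186, 7679, 11871 and 9949 CPM in brain and 18482, 39589, 31105, 35907 and 36129 CPM in spleen (-1.53 ± 0.29, adjusted p = 0.0017). At the other end stood genes that every spleen library held and no brain library counted. Their folds are set against the counting floor, which does not cover the spread between libraries. Taf15, an RNA-binding protein gene, had 399, 287, 363, 279.7 and 267 CPM in spleen and was at least 196-fold lower in brain by that floor. Rps16, a ribosomal protein gene whose family has many near-identical copies, Gdi2, which recycles Rab proteins, and Eif2s2, a translation initiation factor gene, were at least 179-fold, 176-fold and 146-fold lower. Sarnp, an mRNA export gene, and Wapal, a cohesin release gene, were at least 136-fold and 100.02-fold lower.

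Genes known from cells of brain tissue were counted in the brain libraries, unevenly. Ttr, the transthyretin gene of choroid plexus, had 1126, 789, 319 and 0 CPM in brain and 0, 0, 0, 0.115 and 0 CPM in spleen, and was too sparse across libraries to be tested. Enpp2, another choroid plexus gene, had 2956, 45.6, 1109.9 and 0 CPM and 2.71, 2.34, 9.35, 10.4 and 4.26 CPM (7.47 ± 2.00, adjusted p = 0.011). With limma voom Enpp2 did not pass (2.67, adjusted p = 0.23). Summed over 7 choroid plexus and ependymal markers, brain libraries held 4082, 834, 1429 and 0 CPM, against 2.60 to 10.9 CPM in spleen, and Folr1, Kl, Prlr, Otx2 and Foxj1 had 0 counts in brain. The 7 oligodendrocyte markers summed to 53.0 to 321 CPM in brain and 55.1 to 73.6 CPM in spleen, and Mog, Mag and Cldn11 had 0 counts in brain. Of the 8 neuron markers Meg3 rose, with 20.8, 8.84, 9.42 and 25.1 CPM in brain and 0, 0, 0, 0.230 and 1.13 CPM in spleen (adjusted p = 0.0068), and Snap25, Syt1, Rbfox3, Tubb3 and Nefl had 0 counts in brain (sums 9.42 to 277 and 4.59 to 9.98 CPM). Slc1a3 rose among 8 astrocyte markers (3.47, adjusted p = 0.025, and over 0.05 without brain replicate 20 or spleen replicate 36, 37 or 39), whose sums were 0.471 to 137 CPM in brain and 5.28 to 16.7 CPM in spleen, with Gfap and Aqp4 at 0 in brain. Of 15 microglia and macrophage markers, Siglech rose (3.55, adjusted p = 0.016, and 0.051 without brain replicate 22), while P2ry12, Tmem119, Csf1r, C1qa and Trem2 had 0 counts in brain (sums 7.91 to 131 and 102 to 155 CPM). The 8 endothelial and pericyte markers summed to 0 to 5.12 CPM in brain and 10.7 to 24.6 CPM in spleen. The part of brain tissue RNA in the gene results was not tested.

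Markers of other blood cells were mostly held by spleen libraries. The 7 B cell markers summed to 0 to 9.28 CPM in brain and 193 to 494 CPM in spleen. Of the 7, 6 fell, beside 46.7% of all tested genes, and Ms4a1, Cd79a, Cd79b and Ighm had 0 counts in brain. The 7 antigen presenting cell markers summed to 0 to 38.6 CPM and 174 to 467 CPM, with 5 lower and H2-Aa, H2-Ab1 and Ciita at 0 in brain. The 6 CD4 and regulatory T cell markers summed to 0 to 53.0 CPM and 45.7 to 173 CPM, with Cd4 and Foxp3 at 0 in brain. Gamma delta T cell markers summed to 0 CPM in every brain library and 24.9 to 164 CPM in spleen. The sums for NK cell markers were 0 to 64.2 CPM in brain and 44.9 to 132 CPM in spleen, and those for red blood cell markers 0 to 32.6 and 2.12 to 82.6 CPM. Among neutrophil and monocyte markers, Ccr2 gave nearly all of the 0 to 395 CPM in brain, beside 22.7 to 37.0 CPM in spleen, and S100a8, S100a9 and Ly6g were at 0 in brain. The part of these cells in the lower genes was not tested.

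Sex-linked genes were mostly uncounted in brain. The Y-linked gene Ddx3y, an RNA helicase gene, had 59.4, 0, 0 and 0 CPM in brain and 156, 167, 129, 138 and 231 CPM in spleen. Eif2s3y, a Y-linked translation factor gene, had 747, 0, 0 and 0 CPM and 59.7, 36.9, 55.0, 33.5 and 39.95 CPM. Brain replicates 20, 21 and 22 thus had no count of either, nor of Uty, Kdm5d or Xist, and so gave no check of the male label. Xist, the RNA of X inactivation, had 21.2, 0, 0 and 0 CPM in brain and at most 1.04 CPM in spleen. With those 3 libraries left out together, an alternative added after the data were seen that leaves 1 brain library and assumes it varies like the spleen group, 7903 genes passed, 1321 higher and 6582 lower. The immediate early list then had 9 members lower and none higher, and the mitochondrially encoded list 12 higher.

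Stimulated brain cells of aged females, replicates 26 and 27, whose titles are spelled like those of spleen, were set against the same 5 spleen libraries. The 2 comparisons share these libraries. In the female one, 4901 of 11373 genes passed (43.1%), 685 higher and 4216 lower. Egr1 had 1223 and 523 CPM in these libraries (-1.40, adjusted p = 0.018), and Tnfaip3 1198 and 640.2 CPM (-1.61, adjusted p = 0.0097). Nr4a1 had 2774 and 2302 CPM and again did not pass (adjusted p = 0.37). Of the named genes past the threshold with the male libraries, 18 kept their direction and did not pass with the female ones, and Stat2 changed direction (2.79, adjusted p = 0.082). Among the 18, Myc had 446 and 81.2 CPM and Cd200r1 0 counts in both female libraries (adjusted p = 0.24 and 0.08). Log2 fold changes were -0.80 for Zfp36l1 (adjusted p = 0.15), -1.56 for Tbx21 (0.27), -0.68 for Lars2 (0.096), -0.13 for Sri (0.92) and 2.22 for Slc1a3 (0.18). The adjusted p values were 0.088 for Nab2, 0.16 for Zc3h12a, 0.5 for Klrd1, 0.17 for Inpp4b, 0.052 for Pgk1, 0.08 for Zbp1, 0.13 for Bcl2a1d and 0.0505 for Hnrnpf. They were 0.81 for Eif2s2, 0.17 for Sarnp and 0.18 for Wapal, with log2 fold changes of -0.32, -1.73 and -2.34. A further 9 named genes missed the threshold with the male libraries and passed with the female ones, with the sign of change kept. Cd69 (-3.31, adjusted p = 0.0038), Ptprc (-1.84, 0.039) and Itga4 (-2.48, 0.0043) were lower. So were Hsp90aa1 (-0.85, 0.033), Eef1a1 (-0.89, 0.019), Hspa8, Rpl23a and the Y-linked Ddx3y. Hspa1b was higher (1.56, adjusted p = 0.0099). Whether the male and female libraries differ was not tested. Ttr had 550.3 and 577 CPM, and mt-Nd6 had a log2 fold change of 3.57. The female libraries also differ from the male ones in sex, so title spelling and sex cannot be told apart in this pair.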

How the data were processed

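Reads were aligned with Bowtie2 2.2.0 and genes quantified with RSEM 1.2.12 on mm10, per the submitters' processing notes; the sources used here do not give the annotation release or how strand was handled. The authors deposited an RSEM table of expected counts, TPM and FPKM for each library, per the file headers. Expected counts need not be whole, TPM is scaled within a library, and FPKM is scaled by gene length and depth; TPM and FPKM entered no test. The authors' deposited series table holds whole-number counts for 38924 genes, equal to the expected counts within 0.5, and these counts were analysed. RSEM shares reads between near-identical genes, and without stated strand overlapping genes are uncertain. Gene positions are from GENCODE M21 on GRCm38, where 96.6% of identifiers were found.

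Counts were filtered with filterByExpr (minimum count 10), scaled by TMM and tested with edgeR 4.0.16's quasi-likelihood test in R 4.3.3 (two-sided, robust), fitted to the 9 libraries, with Benjamini-Hochberg adjustment over all genes tested and a threshold of 0.05. Contrasts are brain over spleen. Exact permutation tests used scipy 1.17.1; tables and figures used Python 3.11.15, numpy 2.4.6, pandas 2.3.3 and matplotlib 3.10.9. Folds of all-zero genes are bounds against 3 counts per library, and these bounds cover counting error only. Tests were checked on simulated counts: with the spread of all 9 libraries, few or none of the changed genes were recovered, and with that of the spleen libraries most were at larger changes but few at the smallest. A gene that missed the threshold is thus not shown to be equal between tissues. Both tissues were simulated from pooled means with the same spread, so the check does not cover calls of all-zero genes. The libraries, gene lists, motifs and tests were chosen with earlier results of these data known. Named genes are Cd200r1, the 3 members (or fewer) of each list that changed most in each direction at 5 CPM or more, up to 2 of a list with none past the threshold, the 6 highest and 6 lowest changes with at least 10 CPM, the top 8 in brain and 8 of spleen with 0 counts in brain, and sex-linked genes; others were named after their values were seen, and some genes are not reported here. The ranked choices skipped predicted genes, small RNA, pseudogenes and receptor segments, while the 880 genes counted in all 4 brain libraries include unnamed transcripts. Alternatives were RLE and TMMwsp scaling, DESeq2 1.42.0, limma 3.58.1 voom with quality weights, other filters, mitochondrial genes left out, a fit of all 35 libraries, female replicates 26 and 27, rounded expected counts and each library left out. No scaling, and leaving out brain replicate 22 with the mitochondrial genes or brain replicates 20, 21 and 22, were added after the data were seen.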

Additional observations from a re-analysis of the deposited data

Results flagged for a closer look

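In 24 of 191 sets of values compared, the highest or lowest library stood apart from the others of its group by Dixon's criterion at the 95% level (gap over range above 0.829 for 4 and 0.710 for 5 libraries). Chance flags about 1 set in 20.

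In brain, replicate 19 stood high for Zfp36l1 (102.5 CPM), Ifng (2997 CPM), Xist (21.2 CPM), Ddx3y (59.4 CPM) and Eif2s3y (747 CPM), and was the one library with a count of Cxcr4 (0.186 CPM), Cd3d (7.80 CPM) and Pmaip1 (1.86 CPM). Brain replicate 20 stood high for Egr3 (615 CPM), Ccl3 (2088 CPM), Slc1a3 (28.4 CPM), Itga4 (1017 CPM) and Uqcrc2 (1162 CPM). Brain replicate 21 stood high for Cd8b1 (63.1 CPM), Myh9 (5378 CPM) and Rsad2 (898 CPM), and was the one with a count of Rgs10 (1.41 CPM). Different brain libraries thus held the high value for different genes, and no brain library stood apart in depth, genes detected or mitochondrial share.

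In spleen, replicate 40 stood apart with a mitochondrial share of 20.8% and with low values of Serpinb9 (68.4 CPM), Pgk1 (0 CPM) and Hspa1b (1857 CPM). Spleen replicate 39 was the highest for Xist (1.04 CPM) and the one with a count of Ttr (0.115 CPM), and spleen replicate 40 was the highest for Meg3 (1.13 CPM).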

How the results depend on the processing

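No paired analysis was possible because the brain and spleen libraries share no replicate number. The number of genes past the threshold, 4434, stayed within 1.5 times that count under scaling, test, filter and model alternatives, with 2 exceptions. Requiring a count in every library, which favours genes high in brain, left 199 (141 higher, 58 lower) of 874 genes, and brain replicate 19 alone gave 7903 (1321 higher, 6582 lower). Membership moved more than number under some alternatives. Of the 4434 genes, 4406 were also called with RLE scaling and 4429 with DESeq2. Limma voom also called 3483 of them, the fit of all 35 libraries 3475 and the female comparison 2781. The 166 higher genes became 302 with DESeq2, 255 without a low-count filter and 685 with female brain replicates 26 and 27. Leaving out each library gave 3482 to 5981 genes, 111 to 262 higher and 3367 to 5719 lower; fewest were higher without spleen replicate 39, and over 1.5 times as many without brain replicate 19 (262) or 22 (253). In these, brain minus spleen was -11039 to -10308 in genes detected and 36.2 to 45.9 percentage points in mitochondrial share. Scaling moved the median log2 fold change by -0.11 (TMMwsp) and -0.63 (no scaling).

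Of 2363 values of 106 named genes over 23 alternatives, 2222 kept direction and side of the threshold, 68 lost it, 51 gained it, 15 uncalled values moved and 7 reversed. With the female libraries Stat2 stood at 2.79 and Eif2s3y at -11.61. The Eif2s3y log2 fold change stood at -5.46 with limma voom, and leaving out 1 library at a time gave -11.45 (without brain replicate 19) to 2.44. The Uqcrc2 log2 fold change gave -11.28 (without brain replicate 20) to 3.30, and stood at -11.63 with brain replicate 19 alone, where Siglech stood at -0.60. Brain replicate 19 held every brain count of Eif2s3y and brain replicate 20 every brain count of Uqcrc2; for the other values the cause was not tested. Rounded expected counts also gave 4434. Depth is 1 limit on the brain side, and brain values of low genes rest on few counts. At equal nuclear depth, brain libraries still detected 3069 genes on average, against 9903 in spleen. Among genes counted in 1 brain library only, the median ratio of brain to spleen CPM was 1.19 where counted. The floor of 1.63 CPM covers counting error only, so an all-zero gene is not shown to lie below it.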
